A study of Mus musculus with 4 samples.

Results

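Border-associated macrophages were examined in single-cell RNA sequencing data of the mouse brain after transient middle cerebral artery occlusion (tMCAO), a model of stroke in which a filament closes the middle cerebral artery and is then withdrawn to let the blood return. The cells were chosen by a marker rule on their own counts. A cell with 200 to 6000 detected genes and at most 10% mitochondrial UMIs (unique molecular identifiers, each standing for 1 captured RNA molecule) was kept, and it was a member when it had a UMI of at least 3 of Mrc1, Pf4, Cd163, F13a1 and Lyve1 and of at most 1 of P2ry12, Tmem119 and Siglech. In all, 219 of 54754 kept cells were members, namely 45 cells of the sham group, 103 cells of day 1, 39 cells of day 3 and 32 cells of day 7 after tMCAO.

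All groups were male C57/BL6 mice, 8 weeks old by the labels, from whose ipsilateral hemisphere the cells were prepared with papain after perfusion. The sham group had the same surgery without the occlusion and was sampled at day 7 by the series description. There was 1 library per group, and how many mice each library held is not given in the sources used here. A difference between groups therefore cannot be told apart from a difference between libraries, and no p-value is given for it. The libraries held 69392755 to 104023002 UMIs before filtering and 10193 to 16714 kept cells. Of the deposited cell barcodes, 356 occurred in more than 1 library, and no barcode was a member in 2 of them.

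Border-associated macrophages are the resident macrophages of the brain's surfaces, where they line the leptomeninges, the perivascular spaces and the choroid plexus. Microglia, by contrast, sit within the parenchyma. Both depend on the receptor of colony stimulating factor 1 and make complement C1q, but border-associated macrophages carry the mannose receptor Mrc1, the hemoglobin scavenger receptor Cd163, the platelet factor 4 gene Pf4 and, in a perivascular and leptomeningeal fraction, the hyaluronan receptor Lyve1. They are known for the uptake of particles and plasma proteins, for antigen presentation by an MHC class II-rich fraction, and for responses to vascular injury.

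Of the rule's own markers, Pf4 and Mrc1 were found in most members of every library and Lyve1 in the fewest. Pf4 had a UMI in 100% of the members of sham, day 1 and day 3 and in 93.8% of those of day 7. Mrc1 was found in 95.6%, 97.1%, 89.7% and 96.9% of the members of sham, day 1, day 3 and day 7, F13a1, a coagulation factor XIII chain, in 95.6%, 94.2%, 89.7% and 93.8%, and Cd163 in 60%, 51.5%, 61.5% and 56.2%. Lyve1 was found in 24 of 45, 49 of 103, 13 of 39 and 14 of 32 members. All 5 markers occurred together in 62 members (28.3%), and the combination of Mrc1, Pf4 and F13a1 alone in a further 62. Among the genes that had to be low, P2ry12 still had a UMI in 37.8%, 23.3%, 17.9% and 3.12% of the members in the order of the groups. These values chose the members and are a description.

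The label was then compared with genes outside the rule, which the same cells share with the rule and which are therefore no independent support for the name. The levels below are in CPM, the UMIs of a gene summed over the members of a library as a share of all their UMIs, on the usual scale of that unit. The comparison class, here called microglia-rule cells, was made of kept cells with at least 2 of P2ry12, Tmem119 and Siglech and at most 1 of the 5 markers, 1139 cells in all. In the members, the lectin Cd209f stood at 977, 151, 302 and 288 CPM in sham, day 1, day 3 and day 7, against 0, 0, 0.461 and 0 CPM in microglia-rule cells. Cbr2, a carbonyl reductase, stood at 553, 540, 306 and 269 CPM against 0, 9.12, 0.921 and 2.03 CPM, and the membrane protein gene Ms4a7 at 838, 333, 600 and 468 CPM against 6.82, 12.3, 9.21 and 34.5 CPM. In the reverse direction, Cx3cr1, the fractalkine receptor gene high in microglia, had 69.6, 154, 90.2 and 199 CPM in the members and 1589, 1010, 1347 and 2462 CPM in microglia-rule cells.

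Across 8692 genes fitted by edgeR's quasi-likelihood test with the library as a block, 484 (5.57%) were higher and 492 (5.66%) lower in the members than in microglia-rule cells at an adjusted p of 0.05. Because the rule made this contrast, nothing is read from those counts. Of 23 border macrophage genes outside the rule, 23 were on the higher side with a median log2 difference of 4.73, and of 14 homeostatic microglia genes 14 were on the lower side with a median of -3.37, beside a median of -0.0018 over all 8692 genes. Among the 10 largest differences upwards were those of Cd209f, Cd209g, Ccl8, Clec4n, Clec10a, Pla2g2d, Fcna, Cd209b and Mgl2, all lectins or secreted proteins. Glrp1, 2610528A11Rik, Gp9, H2-Ob, Siglecf, Slco4a1, Sema4g and Upk1b led the lower side and had no UMI in any member, followed by Lag3 and Slc2a5. Of the genes shared by macrophages, C1qa was detected at high levels in both classes, ranging from 4852 to 7801 CPM in the members and from 7500 to 9912 CPM in microglia-rule cells.

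**Figure D1:**
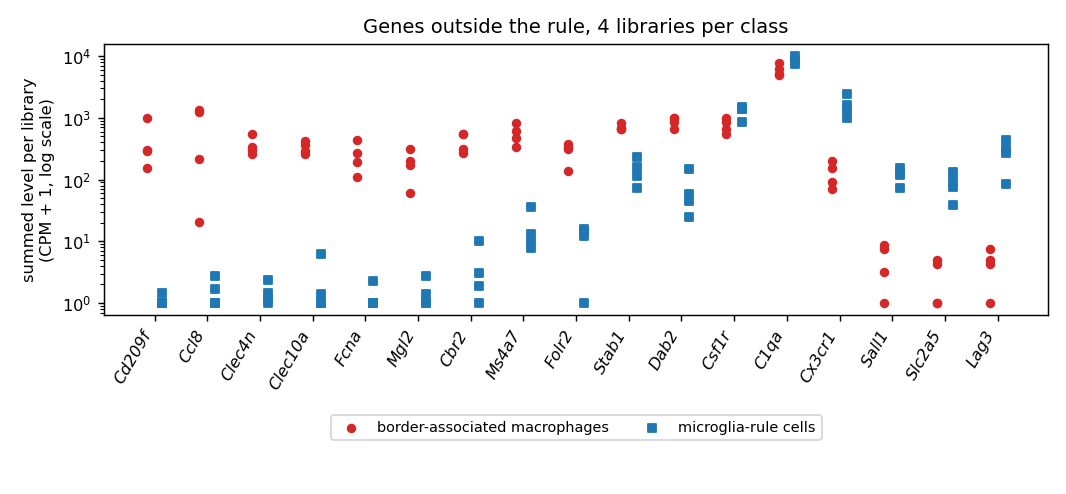
Summed level of 17 genes outside the rule in border-associated macrophages (red) and microglia-rule cells (blue), 1 point per library, as CPM + 1 on a log scale. Cd209f, Ccl8, Clec4n, Clec10a, Fcna and Mgl2 lie at or near 0 in microglia-rule cells, and Cx3cr1, Sall1, Slc2a5 and Lag3 lie lower in the border-associated macrophages.

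The cut between members and other cells was gradual. The 85 members with exactly 3 markers had a UMI of C1qa in 94.1% and of Cbr2 in 52.9% of the cells. Just outside the rule, 114 cells with exactly 2 markers had C1qa in 71.1% and Cbr2 in 22.8%, and another 34 cells with at least 3 markers had 2 or 3 of the microglial genes.

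Some members carried RNA of other cell types, and this bears on every sum below. Of the 45, 103, 39 and 32 members of sham, day 1, day 3 and day 7, at least 2 of 5 endothelial markers were present in 8, 18, 17 and 4, at least 2 of 5 mural markers in 2, 5, 8 and 4, and at least 2 of 5 oligodendrocyte markers in 5, 6, 8 and 7. Summed endothelial markers stood at 2067, 737, 2541 and 1102 CPM in the members and at 15694 to 18499 CPM in endothelial cells. Monocyte markers, such as Ccr2, Ly6c2 and Plac8, were present in 4, 30, 9 and 4 members and at least 2 of 9 in 0, 16, 4 and 1, with Cd177 at 0 in all libraries. Neutrophil markers were present in 4, 18, 19 and 3 members and at least 2 of 7 in 0, 3, 3 and 0, and neuron markers in 8, 37, 8 and 3 members and at least 2 of 5 in 1, 9, 2 and 0. Markers of T and NK cells were found in 1 member. At least 1 of 5 B cell markers was found in 20, 52, 20 and 12 members and at least 2 in 1, 3, 1 and 1, with Cd79a and Ms4a1 at 0 in all libraries. At least 1 of 8 dendritic cell markers was found in 10, 2, 8 and 3 members and at least 2 in 1, 1, 0 and 0. Scrublet called 1, 8, 0 and 3 members doublets. Restricting the members to those with at most 1 marker of each non-myeloid class left 23, 67, 18 and 19 cells, called single-class members here, in which monocyte and neutrophil markers were not limited, and values from this set are given beside some results. Of the named genes' values by day, 22 moved and 4 changed sign in this set, and of the gene lists' sums by day 47 moved. Choroid plexus markers, mainly Ttr, summed to 1000, 14446, 29026 and 564 CPM, with 73.5% and 87.4% of the UMIs of days 1 and 3 in 1 cell each. Without the doublets called by Scrublet, 59 of the named genes' values by day stayed the same and 1 moved, and 53 list sums stayed and 16 moved. In members with at most 1 monocyte marker, 9 gene values and 19 list sums moved. Beyond these alternatives, how much of a result comes from mixed cells was not tested.

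The share of border-associated macrophages among the kept cells was 0.441% in sham (95% exact binomial interval 0.322 to 0.590%, counting error only) and 0.616% on day 1 (0.503 to 0.747%). Later it was 0.345% on day 3 (0.246 to 0.472%) and 0.193% on day 7 (0.132 to 0.273%). Day 1 was thus the highest and day 7 the lowest. Relative to sham the share on day 1 was 1.40-fold (0.974 to 2.03), that on day 3 was 0.782-fold (0.496 to 1.23) and that on day 7 was 0.438-fold (0.269 to 0.705). Of these, only the interval of day 7 leaves out 1. Detection of the markers depends on depth, and the median UMIs of a kept cell were 5493, 3783, 3809 and 3178 in the 4 groups. After thinning each cell to 1000 UMIs, the shares were 0.300%, 0.350%, 0.136% and 0.159%, so that days 3 and 7 changed places. The rule for microglia-rule cells gave 115, 456, 331 and 237 microglia-rule cells, 2.42-fold, 2.60-fold and 1.27-fold their share in sham. Members accordingly made up 28.1% of members plus microglia-rule cells in sham (21.3 to 35.8%) and 18.4%, 10.5% and 11.9% on days 1, 3 and 7. The paper, with its own clustering, reports microglia as a far larger share of the cells at each time point. Microglia-rule cells are thus only a part of the microglia, and these values are not shares of all brain macrophages. They were not thinned, although the rule for microglia-rule cells also depends on depth. All shares depend on tissue dissociation as well as on the tissue.

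**Figure D2:**
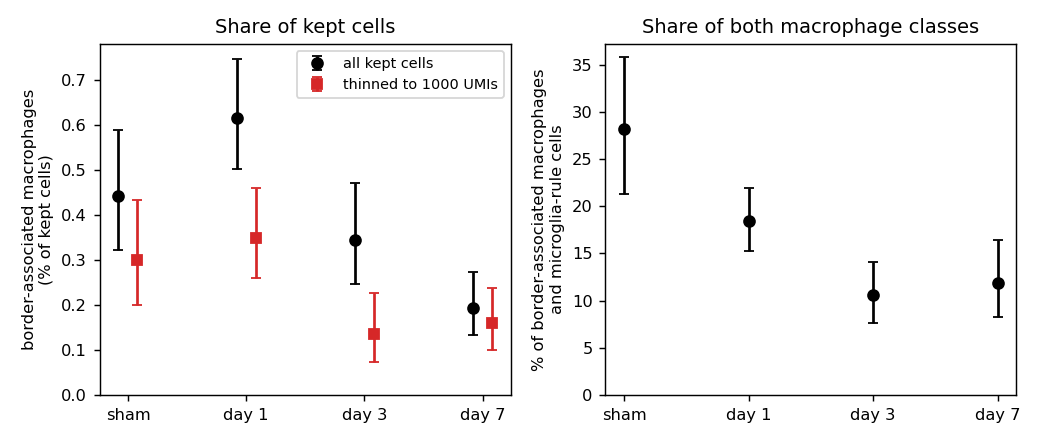
Border-associated macrophages as a percentage of kept cells, with and without thinning to 1000 UMIs per cell (left), and of members plus microglia-rule cells (right), by library. Points are shares and bars are 95% exact binomial intervals. The unthinned share was highest on day 1 at 0.616% and lowest on day 7 at 0.193%. The share of members plus microglia-rule cells, which are only a part of the microglia, was highest in sham at 28.1%.

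To compare the days with sham, 2866 genes with a mean of at least 50 CPM over the 4 libraries were considered, and a gene was called past 2-fold when log2 of the ratio of CPM + 10 was at least 1 in size. With 1 library per group this describes the libraries and is not a test. On day 1, 244 genes (8.51%) were higher and 310 (10.8%) lower than in sham, on day 3, 183 (6.39%) were higher and 166 (5.79%) lower, and on day 7, 235 (8.2%) were higher and 168 (5.86%) lower. The median log2 ratio over all these genes was -0.07, 0.01 and -0.02. These shares are the background for every count of list genes past 2-fold given below. Ratios of CPM below carry 95% exact conditional intervals, which cover counting error only.

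The genes furthest above sham on day 1 encoded secreted, matrix and calcium-binding proteins, and most were absent or nearly absent in sham. Spp1, which encodes the matrix protein osteopontin, stood at 13.2 CPM in sham, 3705 CPM on day 1, 510 CPM on day 3 and 6.41 CPM on day 7, a day 1 ratio of 280 (109 to 1027). It was present in 4 of 45, 70 of 103, 7 of 39 and 1 of 32 members. Saa3, an acute-phase serum amyloid, had 0, 2592, 118 and 6.41 CPM, at least 261-fold higher on day 1 against a floor of 3 UMIs in sham, and 37 members of day 1 had it. Lgals3, the lectin galectin-3, had 0, 816, 1871 and 32 CPM, at least 82.1-fold higher on day 1. In 58 members of day 1 it was present, whereas on day 3 a single cell held 79.7% of its UMIs. Thbs1, the gene of the matrix protein thrombospondin 1, had 0, 247, 54.9 and 64.1 CPM, at least 24.9-fold higher on day 1 and present in 25 members. Day 1 was the highest library for each of these except Lgals3, and on day 1 no single cell held more than 20.7% of their UMIs.

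Spp1 lies at chr5:104435118-104441050, Lgals3 at chr14:47367751-47386160, and Saa3 at chr7:46711998-46715700 of GRCm38. The same genes differed in how far they were shared with microglia-rule cells of day 1. Spp1 reached 2070 CPM in these and Lgals3 316 CPM, whereas Saa3 had 3.39 CPM and Thbs1 12.9 CPM. After thinning to 1000 UMIs per cell, Spp1 was found in 48.5% of the members of day 1, 13.8% of microglia-rule cells and 2.90% of endothelial cells. Lgals3 was found in 33.3%, 11.1% and 1.16% of them, and Thbs1 in 12.1%, 0.679% and 0.596%. Others among the genes furthest above sham on day 1 were the calcium-binding S100a4 (3.31 and 184 CPM) and S100a10 (36.4 and 474 CPM), its partner Anxa2 (16.6 and 240 CPM), the actin-capping Capg (19.9 and 276 CPM) and the chemokine gene Ccl6. These 9 genes were also higher in single-class members, from 3.47 (S100a10) to 8.62 (Saa3) on the log2 scale. In members with at most 1 monocyte marker they ranged from 2.97 (S100a10) to 8.29 (Saa3). That set left 87 of the 103 members of day 1 and still held cells with 1 monocyte marker, and single-class members were not limited in these markers.

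Within day 1, these genes were counted in Lyve1+ and Lyve1- members, as a description of 1 library. Thbs1 was present in 5 of 49 Lyve1+ and 20 of 54 Lyve1- members. Spp1 was present in 28 Lyve1+ and 42 Lyve1- members, Lgals3 in 23 and 35, and Saa3 in 15 and 22. The 2 fractions had a median of 7696 and 8463.5 UMIs per cell. Ccr2, the monocyte chemokine receptor, was present in 13 members of day 1, of which 12 also had Spp1, and in 0, 4 and 2 members of sham, day 3 and day 7. Of the proliferation genes, Mki67 had a UMI in 8 members of day 1 and in no member of the other libraries. Microglia-rule cells of day 1 held 120 CPM of Mki67 against 23.3 CPM in the members.

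**Figure D3:**
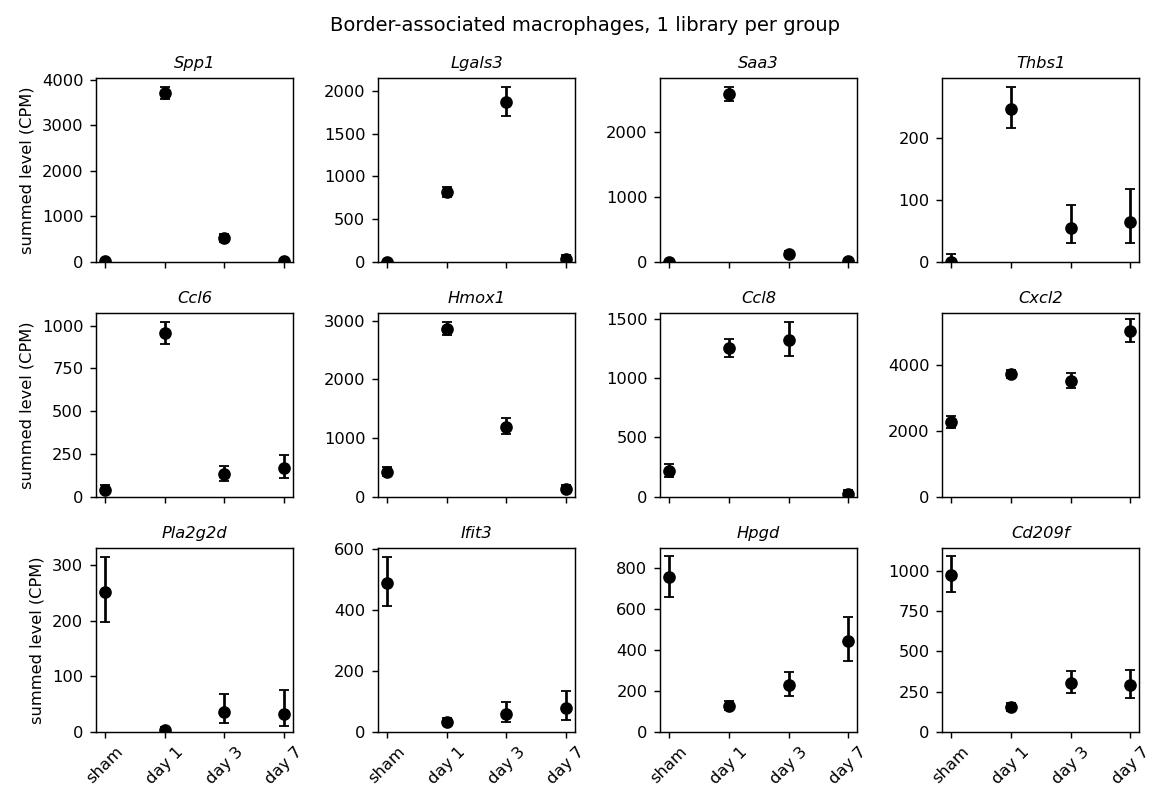
Summed level of 12 genes in border-associated macrophages by library, in CPM with 95% exact Poisson intervals, which cover counting error only. Spp1, Saa3, Ccl6 and Hmox1 were highest on day 1, Cxcl2 on day 7, and Pla2g2d, Ifit3, Hpgd and Cd209f in sham.

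Chemokines, the secreted attractants of leukocytes, were among the most abundant transcripts of the members and divided by gene. Of 9 CC chemokines measured, 4 were higher on each day, and 2, 2 and 4 were lower on days 1, 3 and 7. In sham, Ccl12 stood at 4137 CPM, Ccl2 at 3939 CPM and Ccl7 at 3664 CPM, all ligands of Ccr2. On day 1 they stood at 1348, 2050 and 1794 CPM, on day 3 at 2149, 1953 and 2177 CPM and on day 7 at 2134, 820 and 1352 CPM, so that sham was the highest library for all 3 by CPM. After thinning, the share of members with Ccl2 was 45.5%, 68.7%, 44.7% and 30% in sham, day 1, day 3 and day 7, and that with Ccl7 was 52.3%, 58.6%, 42.1% and 30%, with day 1 above sham for both. For Ccl12 it was 59.1%, 56.6%, 42.1% and 40%. Ccl24, an eosinophil attractant, followed the same order of sham over the tMCAO libraries, with 868, 461, 302 and 314 CPM.

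Ccl8, of the same CC family, had another order, with 215, 1250, 1322 and 19.2 CPM in sham, day 1, day 3 and day 7, and 0 to 1.70 CPM in microglia-rule cells. Its ratio to sham was 5.80 (4.52 to 7.57) on day 1 and 0.0893 (0.0180 to 0.273) on day 7, although 1 sham cell held 52.3% of the sham UMIs. Ccl6 had 36.4, 956, 129 and 167 CPM, a day 1 ratio of 26.2 (14.6 to 52.7). Its log2 ratio on day 1 was 4.38 in all members and 3.09 in members with at most 1 monocyte marker. Ccl9 had 76.2, 498, 184 and 231 CPM. Ccl4 had 262, 1190, 910 and 968 CPM, but microglia-rule cells held more of it in every library (2555 to 6523 CPM). Among CXC chemokines the neutrophil attractant Cxcl2 led with 2262, 3718, 3526 and 5038 CPM, and it was past 2-fold only on day 7, at a ratio of 2.23 (2.01 to 2.47). After thinning, the share of members with Cxcl2 was 45.5%, 75.8%, 39.5% and 53.3%, highest on day 1, and 1 cell held 23.8% of its UMIs on day 7. In microglia-rule cells Cxcl2 had 228, 1080, 333 and 261 CPM.

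Of the cytokines, Il1b, the gene of interleukin-1 beta, had 23.2, 330, 227 and 96.1 CPM, present in 3, 40, 8 and 5 members, and Tnf had 33.1, 163, 58.8 and 76.9 CPM. Il10, the gene of an inhibitory cytokine, went from 82.8 CPM in sham to 31.0 CPM on day 1, a ratio of 0.375 (0.211 to 0.670). Both Tnf and Il1b were lower in the members than in microglia-rule cells of every library, which held 359 to 1043 CPM and 118 to 733 CPM.

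Of 9 heme and iron handling genes measured, 3 were past 2-fold above sham on day 1. Hmox1, the gene of heme oxygenase 1 that breaks down heme, stood at 421, 2865, 1192 and 135 CPM, a ratio of 6.81 (5.70 to 8.21) on day 1 and 0.320 (0.191 to 0.510) on day 7. It was present in 25 of 45, 87 of 103, 16 of 39 and 10 of 32 members, and after thinning in 25%, 58.6%, 15.8% and 16.7% of them. Day 3 was thus above sham by CPM but below it by the share of members with a UMI. Microglia-rule cells held 66.5, 292, 136 and 59.5 CPM of Hmox1. The ferritin chains that store iron followed, Fth1 with 11408, 23594, 24029 and 11236 CPM and Ftl1 with 7191, 15159, 15499 and 4384 CPM. Of 9 genes measured, Hmox1, Fth1 and Ftl1 were higher and the transferrin gene Trf lower on day 1, beside 8.51% higher and 10.8% lower over all 2866 genes. On day 3 a single cell held 38.3% of the list's UMIs, and in single-class members the list's sum was 26057 CPM on day 3 beside 23582 CPM in sham and 47533 CPM on day 1. Markers of erythrocytes, the source of hemoglobin, were present in 25 of 45, 12 of 103, 22 of 39 and 4 of 32 members and summed to 119, 16.6, 635 and 25.6 CPM, with Alas2 at 0 in all libraries, and their part in these levels was not tested.

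Enzymes of glycolysis were higher on day 1 as well. Of 9 glycolysis and hypoxia genes measured, 5 (Pgk1, Ldha, Pkm, Eno1 and Gapdh) were past 2-fold on day 1 and the glucose transporter gene Slc2a1 was lower. Gapdh stood at 431, 1371, 1192 and 404 CPM and Ldha at 139, 406, 333 and 128 CPM. On day 3, 6 of 9 were higher, but 0 of the 8 measured in single-class members of that day. Of 14 cathepsin and lysosome genes, the proteases Ctsd, Ctsl and Lgmn were higher on day 1, Ctsd with 782, 3433, 2220 and 699 CPM. Microglia-rule cells held 2611, 6103, 13084 and 7007 CPM of Ctsd. Of 11 scavenger and uptake receptors, 2 were higher and 2 (Mertk and Cd209f) lower on day 1, with a summed ratio of 0.796. Over all 2866 genes, 8.51% were higher and 10.8% lower on day 1. Beside these shares the counts of the receptor and cathepsin lists are too small to be read as a result for either list. The higher ones were Msr1 (62.9 and 216 CPM in sham and on day 1) and Lrp1 (86.1 and 242 CPM).

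Of the genes that mark the class outside the rule, most stayed within 2-fold of sham on each day, but a larger share was lower than among all genes. The 23 genes summed to 10322, 7037, 6761 and 7275 CPM, and to 12636, 7963, 10930 and 10668 CPM in single-class members. Of 22 measured on day 1, 6 were lower and 1, the endothelin receptor gene Ednrb, was higher. On day 3, 4 were lower and 0 higher, and on day 7, 5 were lower and 1 higher. Over all 2866 genes, 10.8%, 5.79% and 5.86% were lower on days 1, 3 and 7, and 8.51%, 6.39% and 8.2% were higher. Hpgd, the prostaglandin-degrading dehydrogenase, had 755, 125, 227 and 442 CPM, with a day 1 ratio of 0.166 (0.131 to 0.209), and was present in 39 of 45, 49 of 103, 20 of 39 and 18 of 32 members. Hpgd also went from 385 CPM in sham to 95.9 CPM on day 1 in microglia-rule cells. Cd209f had a day 1 ratio of 0.154 (0.125 to 0.190), and Cd209g, Cd209b, Mgl2 and Ms4a7 were lower too. The scavenger receptor gene Stab1 (656, 824, 690 and 667 CPM), Dab2 (987, 844, 651 and 993 CPM) and Cbr2 on day 1 stayed within 2-fold of sham.

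Pla2g2d, a secreted phospholipase A2, was the gene furthest below sham on day 1. It stood at 252, 2.22, 35.3 and 32.0 CPM and was present in 23, 1, 6 and 5 members, a day 1 ratio of 0.00881 (0.00105 to 0.0329), and no microglia-rule cell had it. Of the macrophage genes common to both classes, Csf1r had 1004, 540, 659 and 840 CPM and C1qa 7801, 6109, 5200 and 4852 CPM. None of the 8 complement and receptor genes measured, of 10 in the list, was past 2-fold on any day.

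Interferon-stimulated genes, which respond to type I interferon, were lower in the tMCAO libraries than in sham. Of 9 measured, 7 were lower and none higher on each of the 3 days. Ifit3 had 490, 32.2, 58.8 and 76.9 CPM, present in 30 of 45, 13 of 103, 6 of 39 and 6 of 32 members, with a day 1 ratio of 0.0656 (0.0425 to 0.0982). Irf7, the interferon regulatory factor, had 417, 27.7, 126 and 57.7 CPM, Isg15, a ubiquitin-like modifier, 457, 59.9, 129 and 44.9 CPM, and Bst2, the gene of tetherin, 2534, 695, 863 and 891 CPM. Ifi27l2a went the other way on day 1, with 2329, 3709, 1035 and 718 CPM. The same direction was seen in other classes. The list summed to 7188, 4777, 2694 and 2218 CPM in the members and to 3671, 1389, 1766 and 1464 CPM in microglia-rule cells. In endothelial cells it summed to 7165, 1117, 2548 and 1813 CPM. The day 1 ratio of the sum was 0.665 in the members and 0.378 in microglia-rule cells. In the members, Ifi27l2a alone held 3709 of the 4777 CPM on day 1 and 2329 of the 7188 CPM in sham. The members' ratio therefore does not describe the other genes of the list. Their median log2 ratio on day 1, over the 9 measured genes with Ifi27l2a, was -2.13. What the shift shared by these classes owes to the sham library was not tested.

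The 250 bases before the start of 3 of these genes are shown because the genes moved together, read from the RefSeq table of GRCm38.p6 in the direction of transcription, with matches to the interferon-stimulated response element in capitals. They lie at chr4:156200819-156201068 on the minus strand for Isg15, at chr19:34583279-34583528 on the plus strand for Ifit3 and at chr7:141266425-141266674 on the minus strand for Irf7. The motif was GAAA, any 2 bases and GAAA again, searched on both strands.
Isg15: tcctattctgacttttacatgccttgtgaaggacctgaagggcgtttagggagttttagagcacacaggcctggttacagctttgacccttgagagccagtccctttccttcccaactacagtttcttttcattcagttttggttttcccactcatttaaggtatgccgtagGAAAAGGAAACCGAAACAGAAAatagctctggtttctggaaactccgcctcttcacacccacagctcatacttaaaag
Ifit3: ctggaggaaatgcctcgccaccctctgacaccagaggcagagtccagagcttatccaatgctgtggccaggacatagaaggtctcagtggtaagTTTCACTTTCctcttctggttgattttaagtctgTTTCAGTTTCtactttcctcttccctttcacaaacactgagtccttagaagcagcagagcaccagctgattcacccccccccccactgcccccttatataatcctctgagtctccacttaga
Irf7: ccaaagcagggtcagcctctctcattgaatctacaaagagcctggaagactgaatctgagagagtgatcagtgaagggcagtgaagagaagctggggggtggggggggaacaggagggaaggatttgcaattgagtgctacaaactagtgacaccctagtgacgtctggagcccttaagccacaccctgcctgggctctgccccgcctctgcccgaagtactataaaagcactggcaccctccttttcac
Isg15 held 3 overlapping matches, beginning 78, 72 and 66 bases before the start, Ifit3 held 2 on the opposite strand, and Irf7 held none in this window. Of 7 list genes with an entry, 4 had a match, beside 821 of 27025 promoters (3.04%). A match is a description of the sequence only.

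MHC class II, which presents peptides to helper T cells, differed widely between libraries and rested on few cells. The 8 genes summed to 2557, 315, 1808 and 5038 CPM in the members, with a day 1 ratio to sham of 0.123 (0.107 to 0.141). The day 3 ratio was 0.707 (0.629 to 0.794), and that of day 7 was 1.97 (1.78 to 2.18). In microglia-rule cells they summed to 2282, 319, 481 and 421 CPM, so that of the 2 classes the members were above sham on day 7 and microglia-rule cells below it. H2-Aa had 292, 23.3, 188 and 782 CPM and H2-Eb1 275, 22.2, 169 and 878 CPM, the 2 genes encoding an alpha and a beta chain. Cells with at least 3 of Cd74, H2-Aa, H2-Ab1 and H2-Eb1 numbered 2 of 45, 5 of 103, 3 of 39 and 3 of 32 and held 89.6%, 51.8%, 87.6% and 96.9% of the list's UMIs. A sum over a library therefore follows the presence of 2 to 5 cells. All 13 had Pf4 and C1qa and none had Lyve1, while Ccr2 was found in 0, 1, 1 and 2 of them, and of the dendritic cell genes Flt3 was found in none and Cd209a in 1, a sham cell. In single-class members the sums were 2738, 206, 2048 and 3077 CPM, and with at most 1 monocyte marker 2557, 294, 735 and 2884 CPM, and in both sets 0 of the 5 class II genes measured were past 2-fold on day 7, beside 3 of 6 in all members.

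The promoters of H2-Aa (chr17:34287824-34288073, minus strand) and H2-Eb1 (chr17:34305617-34305866, plus strand) are shown with the Y box of class II promoters, spelled CTGATTGG and searched on both strands, in capitals.
H2-Aa: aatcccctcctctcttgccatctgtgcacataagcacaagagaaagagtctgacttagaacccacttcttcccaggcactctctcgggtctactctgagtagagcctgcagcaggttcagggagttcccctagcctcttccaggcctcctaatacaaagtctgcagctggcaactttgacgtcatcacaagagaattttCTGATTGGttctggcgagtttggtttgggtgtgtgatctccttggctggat
H2-Eb1: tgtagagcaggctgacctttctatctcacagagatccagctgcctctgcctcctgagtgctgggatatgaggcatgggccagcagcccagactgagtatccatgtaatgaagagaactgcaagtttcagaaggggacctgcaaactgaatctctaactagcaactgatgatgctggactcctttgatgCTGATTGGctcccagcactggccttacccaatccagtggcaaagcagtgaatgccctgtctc
The match begins 51 bases before the start of H2-Aa and 62 bases before that of H2-Eb1. Of 5 class II genes with an entry, 2 had it, beside 1099 of 27025 promoters (4.07%).

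**Figure D4:**
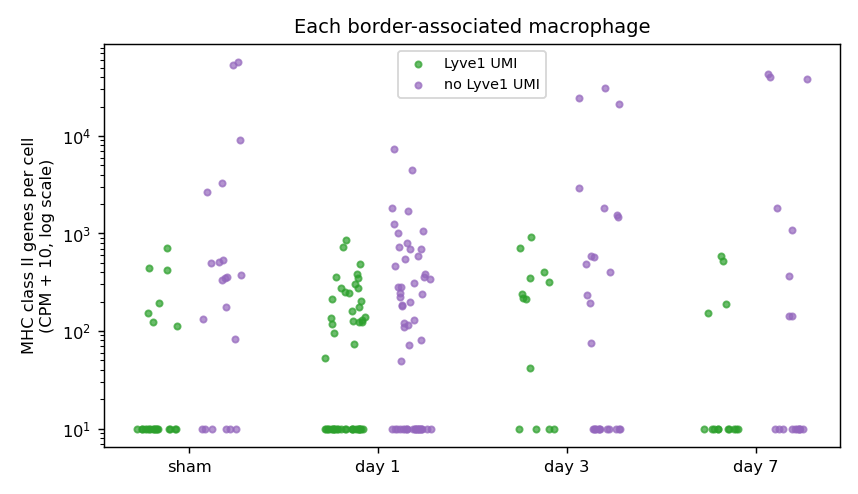
MHC class II level of each border-associated macrophage, as CPM + 10 on a log scale, by library and by the presence of a Lyve1 UMI. Each point is a cell, with sideways scatter added for legibility. The 2, 5, 3 and 3 cells with at least 3 of the 4 class II genes have no Lyve1.

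The split by Lyve1 was tested across libraries, with edgeR's quasi-likelihood test on sums per library and fraction, the library as a block, and all 8 rule genes left out. Because Lyve1 is also 1 of the rule's markers, a Lyve1+ cell needed only 2 of the other 4. With Lyve1+ members limited to the 22, 49, 12 and 13 that had at least 3 of the other 4, a comparison chosen after seeing the data, edgeR called 4 genes higher and 5 lower, 9 of which were among the 10 below. The gene that was lost was Ccl2, at an adjusted p of 0.067. Of 2830 genes, 5 were higher (0.177%) and 5 lower (0.177%) in Lyve1+ than in Lyve1- members at an adjusted p of 0.05. The clearest was Cd209f, with 1593, 288, 575 and 689 CPM in Lyve1+ members of sham, day 1, day 3 and day 7 and 182, 38.4, 96.3 and 31.6 CPM in Lyve1- members, a log2 difference of 3.12 (SE 0.29, adjusted p 0.00989 in edgeR). Lyve1+ members were higher in 4 of 4 libraries for Cd209f and for the chemokines Ccl24 (log2 difference 1.95, edgeR adjusted p 0.0146), Ccl7 (1.62, 0.0144) and Ccl2 (1.79, 0.0479), and for Fcgrt, the neonatal Fc receptor (1.47, 0.0440). Ccl2 stood at 5691, 3059, 2947 and 1756 CPM in Lyve1+ and 1677, 1222, 1204 and 221 CPM in Lyve1- members.

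Class II genes, Apoc1 and Vim were lower in Lyve1+ members. H2-Eb1 had no UMI in the Lyve1+ members of any library and 283 UMIs in Lyve1- members, at least 81.3-fold lower against 3 UMIs over the group. The class II UMIs of Lyve1- members lay mostly in the 2, 5, 3 and 3 class II-rich cells described above. H2-Ab1 had 2 UMIs against 340, a ratio of 0.00683 (0.000824 to 0.0249), and H2-Aa 3 against 276, a ratio of 0.0126 (0.00259 to 0.0373). The intermediate filament gene Vim had 159, 428, 356 and 673 CPM in Lyve1+ and 478, 1004, 1410 and 2535 CPM in Lyve1- members (log2 difference -1.65, edgeR adjusted p 0.0144), and the apolipoprotein gene Apoc1 had a log2 difference of -3.95 (edgeR adjusted p 0.0319). These calls rest on few libraries. They numbered 9 without sham, 4 without day 1, 0 without day 3 and 1 without day 7, with 225 genes at an unadjusted p under 0.05 in edgeR without day 3, while DESeq2 called 21 on all 4 libraries. Without the library as a block edgeR called 0, with 107 at an unadjusted p under 0.05. Over the alternatives, the adjusted p reached 0.270 for Cd209f, 0.848 for Ccl2 and 0.0886 for H2-Eb1.

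Immediate-early genes, which are induced within minutes by stimuli and also by tissue handling, were lowest on day 1. They summed to 23684, 8062, 14719 and 27170 CPM, with 9 of 12 lower on day 1. Fos had 4098, 924, 1765 and 4679 CPM and Jun 3723, 683, 2102 and 3621 CPM. Of 6 glucocorticoid-responsive genes, 4 (Tsc22d3, Klf9, Dusp1 and Txnip) were lower on day 1. Microglia-rule cells had like ratios on day 1, 0.268 beside 0.340 for immediate-early genes and 0.322 beside 0.302 for glucocorticoid-responsive genes. The transcript Gm42418, which overlaps ribosomal RNA sequence, had 7218, 781, 1267 and 3724 CPM in the members and 7522, 648, 1532 and 2707 CPM in microglia-rule cells. In endothelial cells, immediate-early genes summed to 20498 CPM in sham and 13641 CPM on day 1, and glucocorticoid-responsive genes to 3342 and 2956 CPM. The part of these shifts in the members' other differences was not tested.

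On day 3, the genes furthest above sham leaned on single cells. Lgals3, Spp1, Gdf15, Saa3, Capg, Clec4d, Fabp5, Apoc1 and Hspa1b were among the first 10, and the cell with most UMIs of a gene held 53.3% or more of them on that day for each of these genes. The log2 ratio of Lgals3 was 7.56 in all members, 5.27 in single-class members and 5.29 without its top cell in each library, with a lowest value of 2.60 over the alternatives. That of Spp1 was 4.48, 4.86 and 3.03. In single-class members Hspa1b was at 0.55, Saa3 at 0 and Apoc1 at -0.0022. Genes below sham on day 3 included Cited2, a transcriptional co-regulator, which had 1458, 370, 271 and 603 CPM and was present in 33, 69, 20 and 17 members. The others furthest below sham were Txndc16, Ifit3b, Rtf1, Adrb1, Ifit3, Ighm, Pla2g2d, Gm42418 and Oasl2.

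On day 7, the genes furthest above sham were mostly those of smooth muscle. Acta2, smooth muscle actin, stood at 610, 121, 188 and 4814 CPM and was present in 4, 17, 14 and 6 members, and the actin-binding Tagln at 414, 72.1, 157 and 4480 CPM in 7, 8, 10 and 12 members. Tpm1, Tpm2, Myh11, Des, Palld and Ppp1r14a followed, with Tcap in 2 cells and Pmch in 1 cell. Summed mural markers stood at 805, 205, 302 and 5999 CPM in the members, with Kcnj8 at 0 in all 4 libraries. In single-class members the log2 ratio of day 7 was -0.01 for Acta2, 0 for Myh11, -0.20 for Tpm2, -0.78 for Des, 0 for Tcap, 0.49 for Palld, 0.74 for Tpm1, 1.79 for Tagln and 1.94 for Ppp1r14a. The 10 genes furthest below sham on day 7 were also below it in those members, namely Isg15, Ccl8, Fbxw4, Irf7, Pla2g2d, Ifit3b, Ifit3, AB124611, Ccl2 and Vamp4, from -3.95 (Fbxw4) to -1.08 (Ccl8) on the log2 scale.

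Of the lipid-handling genes linked to injury in microglia, Apoe had another order in the members. Apoe, the most abundant gene of the list, had 56544, 26010, 39380 and 50110 CPM in the members, lowest on day 1, and 799, 3446, 11655 and 19666 CPM in microglia-rule cells, highest on day 7. Members thus held more Apoe than microglia-rule cells in every library. Of 7 measured genes, Spp1, Fabp5, Lgals3 and the lipid droplet gene Plin2 were higher on day 1 and Apoe lower. Gpnmb was present in 0, 10, 2 and 0 members.

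**Figure D5:**
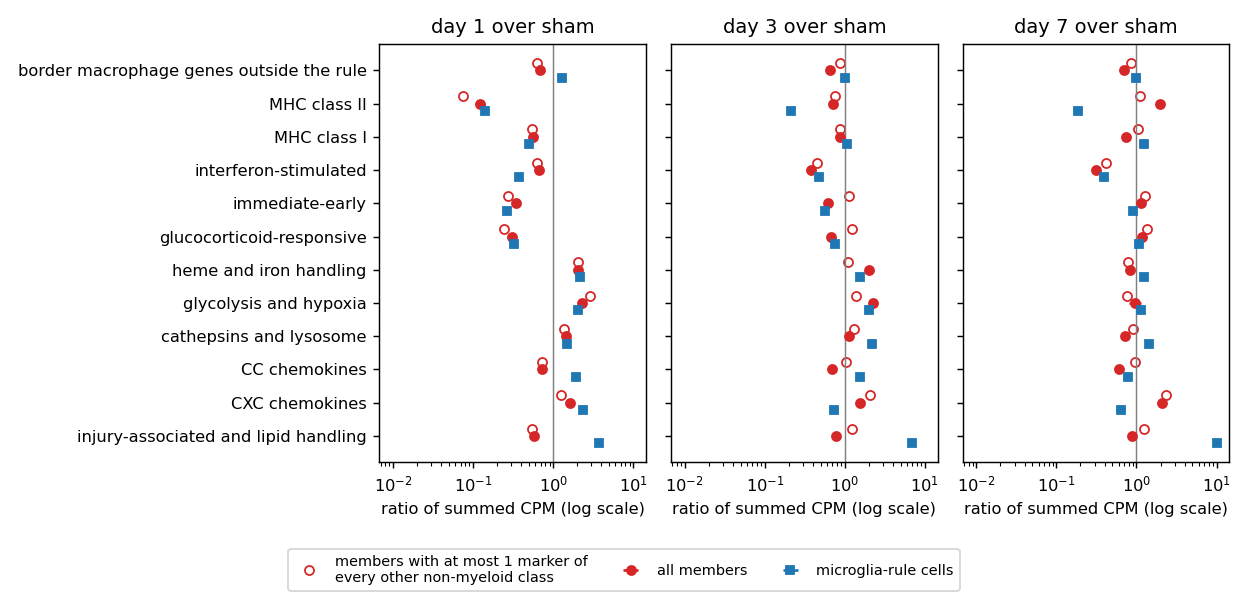
Ratio of the summed CPM of 12 gene lists on each day over sham, on a log scale, for all members (filled red), single-class members (open red) and microglia-rule cells (blue). Bars on the filled red and blue points are 95% exact conditional intervals covering counting error only. MHC class II was below sham on day 1 in both classes and above it on day 7 only in the members. The injury-associated list was above sham on all 3 days in microglia-rule cells and below it in all members. In the members that sum was mostly Apoe, and 4 of the 7 measured genes of the list were past 2-fold above sham on days 1 and 3.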

How the data were processed

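Single-cell RNA libraries of the 10x 3' chemistry were made from 1 sham, 1 day 1, 1 day 3 and 1 day 7 sample. The authors deposited filtered matrices of UMI counts (unit counts), made with Cell Ranger (3.0.1 by the submitters' processing notes, 4.0.0 by the matrix headers), and their notes also name Seurat 4.1.2. The methods name a human genome build, but 30934 of the 31053 deposited features (99.6%) matched GENCODE vM21 of mouse build GRCm38, from which positions are given. Limits of 200 to 6000 genes and 10% mitochondrial UMIs per cell were applied. Doublets were called with Scrublet and kept. The members and gene lists were chosen with earlier results of these data known.

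UMIs were summed per library. Tests used edgeR 4.0.16 (quasi-likelihood, TMM, Benjamini-Hochberg adjusted p of 0.05, library as a block), with DESeq2 1.42.0 as an alternative, and were checked on simulated data. The pairing comes from both fractions being taken from 1 library. Intervals are exact at 95% and cover counting error only. Genes named are the 10 furthest from sham each way per day among 2866 genes with a mean of 50 CPM, whose interval leaves out 1 and which no other class held at over 5 times the members' level, the 10 largest differences each way of the 2 fits, and genes of 37 lists. Many named genes are overlapped by another gene on the opposite strand (such as Ccl2, Ccl6, H2-Eb1, Irf7, Thbs1, Il1b, Anxa2, Jun, Fcna, Tagln and Cx3cr1) or the same strand (such as Spp1, S100a4 and Ctsd), and their counts are uncertain to that extent. Analyses used Python 3.11.15, scipy 1.17.1, scanpy 1.11.5 and R 4.3.3. Some results are not reported here.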

Additional observations from a re-analysis of the deposited data

Results flagged for a closer look

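Gene lists, other than markers of other cell types, whose ratio to sham lay well away from 1, on opposite sides, in border-associated macrophages and in microglia-rule cells are given here, each from 1 library per group, and none of these differences was tested. Marker lists of other cell types also lay on opposite sides, such as monocyte markers on days 1 (7.20 in the members and 0.0754 in microglia-rule cells) and 3 (7.10 and 0.0805), neuron markers on days 1 (4.97 and 0.598) and 3 (2.57 and 0.177), erythrocyte markers on day 3 (5.33 and 0.475) and choroid plexus markers on day 7 (0.564 and 6.25). Among the remaining lists, some lay on opposite sides with at least 1 ratio nearer to 1, such as CC chemokines on day 1 (0.716 in the members and 1.91 in microglia-rule cells), CXC chemokines on day 3 (1.55 and 0.737) and cathepsins on day 7 (0.718 and 1.43). The summed MHC class II level on day 7 was 1.97 times that of sham in the members and 0.184 times in microglia-rule cells. In the members 3 cells of day 7 held 96.9% of those UMIs, and in single-class members, those with at most 1 marker of each non-myeloid class, the level was 2738 CPM in sham and 3077 CPM on day 7. CXC chemokines on day 7 stood at 2.11 and 0.633 times sham. The injury-associated and lipid handling list on day 1 stood at 0.568 times sham in the members, where Apoe made up most of it, and at 3.70 times in microglia-rule cells, and it stood at 0.769 and 6.90 on day 3 and at 0.892 and 10.2 on day 7. The proliferation list on day 3 stood at 0.623 and 2.35 times sham. In the members that list held 114 UMIs in sham, 40.4% of them in 1 cell, and without each gene's top cell its level was 189 CPM in sham and 184 CPM on day 3, chosen after seeing the data, so that the members' difference rests on few sham cells.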

How the results depend on the processing

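With 1 library per group, the days cannot be told apart from the libraries. No paired analysis was possible because of this for the day comparisons. The share of members in sham was 0.304% with at least 4 markers, 0.245% with no microglial gene and 0.300% after thinning. On day 1 it was 0.921% with at least 2 markers, 0.359% with 4, 0.395% with no microglial gene and 0.350% after thinning. On day 3 it was 0.593%, 0.204% and 0.136% (at least 2, at least 4, thinned), and on day 7 0.314% and 0.121% (at least 2, at least 4). A minimum of 10 CPM gave 520 higher and 760 lower genes on day 1, 649 and 583 on day 3 and 1045 and 653 on day 7. A minimum of 100 CPM gave 167 lower on day 1, 106 higher and 69 lower on day 3, and 113 higher and 80 lower on day 7. Without each gene's top cell 193 were lower on day 1, 104 higher on day 3 and 146 higher on day 7, and single-class members gave 274 lower on day 3. The log2 ratio changed sign for Fabp5 on day 3 with at least 4 markers (-0.45), and in single-class members for Apoc1 on day 3 (-0.0022) and for Tpm2 (-0.20), Des (-0.78) and Acta2 (-0.012) on day 7. The cause was not tested.

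Without the replicate block, members against microglia-rule cells gave 222 higher and 246 lower genes, and Lyve1+ against Lyve1- gave 0 and 0 in edgeR, with 107 at an unadjusted p under 0.05. Leaving out each library gave 311 to 452 higher and 299 to 455 lower genes in the first fit, and 0 to 4 and 0 to 5 in the second. No filter on low counts gave 762 lower in the first, and 36 higher and 72 lower in the second. In the second, DESeq2 gave 10 higher and 11 lower, the lower upper limit of genes per cell that the authors used 9 higher, single-class members 8 lower, and a split after thinning 47 and 85.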
